A study of Danio rerio with 3 samples.

Results

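The genes described here are p53 target genes in the liver of larval zebrafish, the genes *mdm2*, *cdkn1a*, *ccng1*, *gadd45aa*, *baxa*, *bbc3*, and *sesn1*. Their probes were found by matching the RefSeq accession of each non-control probe of the Agilent zebrafish array to these 7 gene symbols. The match gave 16 probes for 6 of the 7 genes, out of 43603 non-control probes on the array, of which 26094 carried a gene symbol. Of these genes, *ccng1* had 4 probes, *bbc3* and *sesn1* had 3 each, and *mdm2*, *gadd45aa*, and *baxa* had 2 each. No probe was matched to *cdkn1a*, which is not analysed here.

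AB strain larvae were fed from 5 dpf for 10 days, and their liver RNA was hybridized at 15 dpf to 3 single-colour arrays, 1 for each group. The control larvae received AP100 at 30 mg per 100 fish and day, and the high-cholesterol diet (HCD) larvae received 180 mg of AP100 with 4% cholesterol. The BBR larvae received the same HCD and berberine at 5 μM, so diet amount and cholesterol differed together between HCD and control, and both were shared by HCD and BBR. There were no replicate arrays, no group with berberine alone, and the number of livers behind an array is not given in the sources used here. The comparisons below ask how the target genes of p53 differed with the diet and with berberine given on top of it.

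p53 is a transcription factor that responds to DNA damage and other stress. It is kept low by Mdm2, a ubiquitin ligase that marks p53 for degradation, and since *mdm2* is also a target of p53, the pair forms a feedback loop. Other targets stop the cell cycle (*cdkn1a*, the p21 inhibitor of cyclin-dependent kinases, and *gadd45aa*), restrain growth signalling (*sesn1*), or start cell death at the mitochondria (*baxa*, *bbc3*). Much of the activity of p53 is set by the stability of its protein, which arrays do not measure. In the mammalian liver, p53 has been studied in connection with hepatocyte death in fatty liver.

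Control and BBR RNA was hybridized on slide 1 and HCD RNA on slide 2, so for any comparison with HCD, diet or berberine and slide cannot be told apart. BBR against control is the only comparison within a slide, but array quality differed within it. Outlier spots numbered 1510 on the control array, 1665 on HCD, and 20 on BBR. The SD between copies of a probe was 0.21 on control, 0.21 on HCD, and 0.11 on BBR. All outlier spots of target probes were on the control or HCD array. Between 88.5% and 92.3% of the spots were well above background. Probes printed in several copies varied between copies, for a difference of arrays, with an SD of 0.30 log2 units for HCD against control and 0.24 for each of the other comparisons. Such an SD holds only spot-level error and no spread between animals or extractions. The other error given below is the spread between probes of a gene. Of 11 hepatocyte markers, 9 were measured, and all 9 were well above background on every array, including *fabp10a*, a liver fatty acid binding protein. So were all measured markers of exocrine pancreas (9 of 11 listed), intestine (5 of 6), skeletal muscle (8 of 9), erythrocytes (6 of 8), skin and other epithelium (6 of 8), and macrophages and neutrophils (6 of 7). Most spots pass this mark, so it shows little alone. Summed marker levels in control, in units of the 75th percentile of the array, were 134 for hepatocytes, 325 for exocrine pancreas, and 213 for skeletal muscle. They were 107 for skin and other epithelium, 76.7 for intestine, 24.6 for erythrocytes, and 10.2 for macrophages and neutrophils. The RNA labelled liver thus also held signal of other tissues, such as exocrine pancreas and skeletal muscle.

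Levels are given below as processed fluorescence intensity, in arbitrary units, and differences as log2 differences after the 75th percentile of each array was subtracted. Among the target genes, 1 probe differed at least 2-fold in any comparison. It was a *sesn1* probe that was lower in HCD than in control, 1 of the 12 probes compared. Of all 37112 probes compared between HCD and control, 7.56% differed at least 2-fold in either direction and 4.01% were at least 2-fold lower in HCD. None of the 14 probes compared between BBR and HCD reached 2-fold, against 5.68% of all probes, and none of 14 between BBR and control, against 5.04%. At 1.5-fold, the counts of target probes were 6, 1, and 5 in the same order of comparisons, against 27.3%, 21%, and 17.1% of all probes. At 3-fold, they were 0 in each, against 1.5%, 0.977%, and 1.44%. With 1 array per group, these are counts past a fold and not tests.

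The target probes lay on both sides of control. In HCD against control, 6 of the 12 probes were higher and 6 lower, with a median log2 difference of −0.03 beside −0.16 over all probes. Taking each gene by its brightest probe, the median of the 6 genes was 0.06 in HCD against control, 0.03 in BBR against HCD, and 0.10 in BBR against control. The medians over all genes, where each accession without a symbol also counted as a gene, were −0.16, 0.10, and −0.03. The sign of the target genes' median depended on the processing in the comparisons with HCD. Since the middle of all genes read lower in HCD than in control, a log2 difference of 0 in that comparison lies above the median gene. The range over the target genes was wider than these shifts, from −1.10 to 0.65 in HCD against control.

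**Figure D1:**
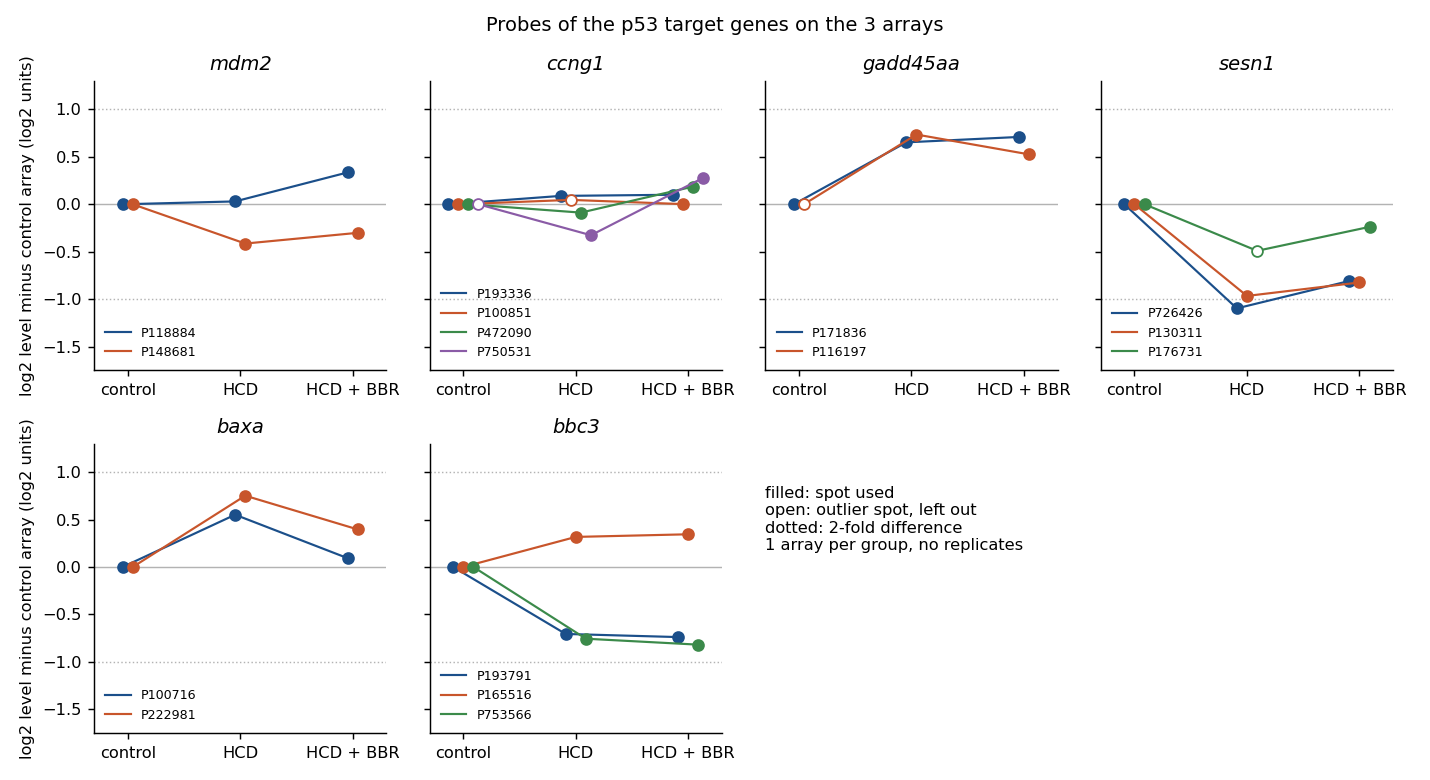
Log2 level of each probe minus its own level on the control array (vertical axis, log2 units) on the control, HCD, and HCD plus BBR arrays, with 1 line per probe and 1 panel per gene. Open points are outlier spots that were left out of the comparisons. *gadd45aa* and *baxa* lay above their control level, and *sesn1* and 2 of the 3 *bbc3* probes below it.

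The feedback genes of p53 stayed below 2-fold on every probe compared. For *mdm2*, the brighter probe (A_15_P118884) read 2290 in control, 2355 in HCD, and 3083 in BBR. Its log2 difference was 0.03 for HCD against control, 0.31 for BBR against HCD, and 0.34 for BBR against control. The other probe of *mdm2* (A_15_P148681) read 1106, 835, and 957 in the same order. Its log2 differences were −0.41 for HCD against control, 0.11 for BBR against HCD, and −0.30 for BBR against control. Both probes were thus higher in BBR than in HCD, but with array medians this probe gave −0.03. The probes placed BBR on opposite sides of control, and over both of them *mdm2* differed from control by 0.02 ± 0.45 in BBR (SD, n = 2 probes). With normexp background correction, the brighter probe was also lower in HCD than in control, by −0.38.

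For *ccng1*, whose product cyclin G1 binds a phosphatase that acts on Mdm2, the brightest probe free of outlier spots (A_15_P193336) read 23626 in control, 25295 in HCD, and 27019 in BBR. Its log2 differences were 0.09 for HCD against control and 0.01 for BBR against HCD. A dimmer probe (A_15_P472090) read 810, 767, and 983, with log2 differences of −0.09 and 0.27. A brighter probe (A_15_P100851) read 29027 in control and 30998 in BBR, a log2 difference of 0.00, and its HCD spot was an outlier. Over these 3 probes, BBR differed from control by 0.10 ± 0.09 (SD, n = 3 probes). The fourth probe (A_15_P750531), an outlier in control, read 1840 in HCD and 2968 in BBR, a log2 difference of 0.61. This was the largest difference among the 14 target probes compared between BBR and HCD.

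The targets that act on cell cycle arrest and growth lay on opposite sides of control. For *gadd45aa*, which takes part in growth arrest and DNA repair, A_15_P171836 read 1652 in control, 2616 in HCD, and 2882 in BBR. HCD was 1.57-fold and BBR 1.64-fold higher than control, with log2 differences of 0.65 and 0.71, and BBR differed from HCD by 0.06. The second probe (A_15_P116197) read 3430 in HCD and 3143 in BBR, a log2 difference of −0.21, and its control spot of 2046 was an outlier. With that spot kept, its differences from control were 0.74 in HCD and 0.53 in BBR. The control array was thus the lowest of the 3 on both probes, and HCD and BBR were within 0.21 log2 units of each other. With array medians, BBR differed from HCD by −0.08 on the first probe and −0.35 on the second.

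For *sesn1*, which encodes sestrin 1, a stress protein that restrains the growth kinase mTORC1, A_15_P726426 read 21056 in control, 9907 in HCD, and 12822 in BBR. It was 2.14-fold lower in HCD than in control and 1.75-fold lower in BBR than in control, with log2 differences of −1.10 and −0.81. The probe just short of the threshold (A_15_P130311) read 15495, 7984, and 9332, with log2 differences of −0.97 and −0.82. The third probe (A_15_P176731) read 21704 in control and 19626 in BBR, a log2 difference of −0.24, and its HCD spot of 15552 was an outlier. Control was the highest array on each of the 3 probes, and the size differed between them, with a mean of −0.62 ± 0.33 (SD, n = 3 probes) for BBR against control. BBR was above HCD by 0.29 and 0.14 on the first 2 probes, near the SD of 0.24 between copies of a probe, and the second of these turned to as low as −0.07 under the alternatives.

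The cell death targets also split. For *baxa*, the zebrafish form of the pore-forming protein Bax, A_15_P100716 read 1443 in control, 2130 in HCD, and 1642 in BBR. The dimmer probe (A_15_P222981) read 189, 321, and 266. HCD was the highest array on both, with a log2 difference from control of 0.65 ± 0.14 (SD, n = 2 probes), and BBR was lower than HCD by a log2 difference of −0.41 ± 0.07 (SD, n = 2 probes). Against control, BBR differed by 0.24 ± 0.21 (SD, n = 2 probes). Normexp background correction reduced the *baxa* differences between HCD and control to 0.24 on the first probe and 0.43 on the second, and those between BBR and HCD to −0.21 and −0.25.

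For *bbc3*, which encodes Puma, an activator of Bax, A_15_P193791 read 1674 in control, 1033 in HCD, and 1069 in BBR, and A_15_P753566 read 1318, 786, and 797. HCD was 1.63-fold and 1.69-fold lower than control on these probes, and BBR 1.67-fold and 1.76-fold lower. The third probe (A_15_P165516) went the other way and read 462, 579, and 626, which was 1.25-fold higher in HCD and 1.27-fold higher in BBR than in control. The mean difference of BBR from control was −0.40 ± 0.65 (SD, n = 3 probes), so the direction of *bbc3* depends on the probe. All 3 probes placed BBR within 0.07 log2 units of HCD, and with array medians they differed by −0.11 to −0.20. The files do not state which part of the transcript each probe measures.

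**Figure D2:**
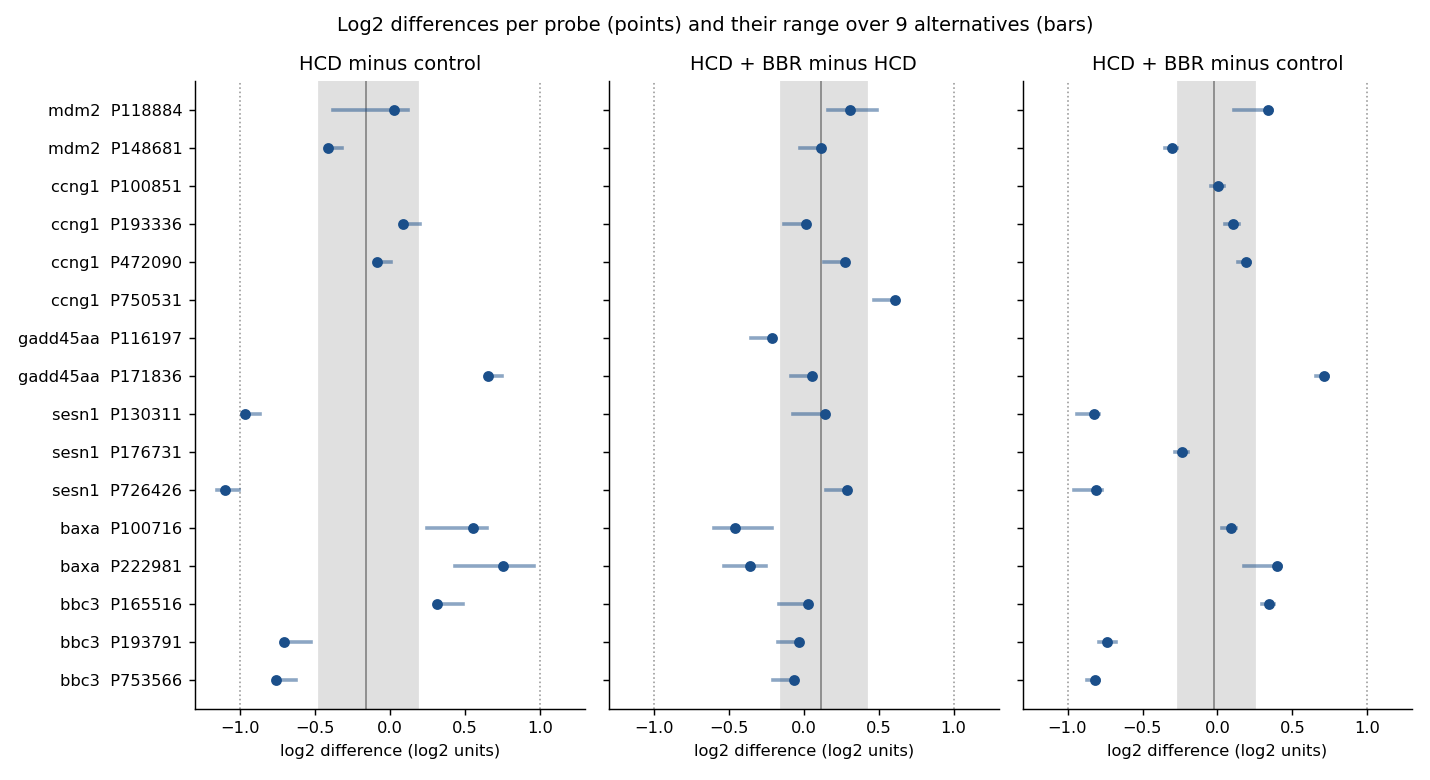
Log2 difference of each probe (points, horizontal axis in log2 units) and its lowest and highest value with the main setting and 9 alternative settings (bars) in the 3 comparisons. The grey band spans the middle 50% of all probes around their median (line), and dotted lines mark 2-fold. *sesn1* lay beyond −1 on 1 probe in HCD against control. *gadd45aa*, A_15_P222981 of *baxa*, and A_15_P165516 of *bbc3* lay to the right of the band in both comparisons with control. The other *bbc3* probes and the *sesn1* probes A_15_P726426 and A_15_P130311 lay to its left in both.

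Markers of macrophages and neutrophils were higher on the HCD and BBR arrays than on the control array. The 6 measured genes had a median log2 difference from control of 0.61 in HCD and 0.88 in BBR, and their summed level, in units of the 75th percentile of the array, was 10.2 in control, 15.4 in HCD, and 16.7 in BBR. The summed level of the erythrocyte markers was 24.6 in control, 33.2 in HCD, and 32.7 in BBR. Most of this sum was *hbae1.1*, which read 41136, 57647, and 60633. The erythrocyte markers went both ways, with a median log2 difference from control of 0.22 in HCD and −0.01 in BBR. *slc4a1a* was higher than control on both arrays, and *hbaa2* and *hbba1* were lower. The summed level of the hepatocyte markers ranged from 127 to 136 over the 3 arrays, exocrine pancreas from 276 to 325, and intestine from 74.5 to 78.1. Skeletal muscle ranged from 187 to 213, and skin and other epithelium from 95.4 to 120. Every measured marker was well above background on each array, a mark that most spots passed. The part of these cell types in the differences of *gadd45aa* and *sesn1* was not tested. In whole-tissue RNA, fewer cells of a type and less RNA per cell cannot be told apart.

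Relatives of the target genes were measured beside them. *mdm4*, a partner of Mdm2 that also binds p53, had log2 differences of −0.18 in HCD and −0.31 in BBR against control on its brightest probe. The cyclin G relative *ccng2* was lower than control by log2 differences of −0.40 in HCD and −0.50 in BBR on its brightest probe. With normexp, the HCD differences from control on these probes were 0.02 for *mdm4* and −0.06 for *ccng2*. The dimmer probes differed from control by −0.27 in HCD and −0.08 in BBR for *mdm4*, and by −0.72 and −0.33 for *ccng2*. Their HCD differences were −0.20 and −0.60 with normexp. BBR differed from HCD by −0.11 on the brightest *ccng2* probe and 0.40 on the dimmer one. In contrast to *sesn1*, *sesn2* read 495 in control, 1314 in HCD, and 1231 in BBR, with log2 differences from control of 1.40 and 1.22, and its dimmer probe gave 0.34 and 0.05. *sesn3* differed by 0.23 in HCD and −0.27 in BBR. Thus control was the highest of the 3 arrays for *sesn1* and, on the brightest probe, the lowest for *sesn2*. On the dimmer *sesn2* probe, the BBR difference from control turned to −0.002 with array medians and −0.007 with normexp.

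In the Gadd45 family, *gadd45ba* read 5361 in control, 2559 in HCD, and 3817 in BBR, with log2 differences from control of −1.08 and −0.58, and its second probe gave −1.44 and −0.86. *gadd45aa* and *gadd45ba* were thus on opposite sides of control. *gadd45gb.1* read 706 in control, 682 in HCD, and 418 in BBR, and both of its probes were lower in BBR than in HCD, by log2 differences of −0.79 each. *gadd45ga* differed by −0.34 in HCD and −0.33 in BBR against control, while *gadd45ab* and *gadd45bb* stayed within 0.10 of control on their brightest probes, and their HCD difference from control turned sign under normexp, to −0.18 and −0.16. Among relatives of *cdkn1a*, which inhibit the same kinases, *cdkn1ca* differed from control by 0.01 in HCD and −0.28 in BBR, and *cdkn1d* by −0.88 and −0.95. The probes of *cdkn1bb* disagreed. A_15_P565302 differed from control by −0.17 in HCD and 0.07 in BBR, and A_15_P664036 by −0.55 and −0.57. A_15_P736946, an outlier in control, was 2.44-fold higher in BBR than in HCD, where these probes gave log2 differences of 0.24 and −0.02. The *cdkn1d* probe read only 88, 48.3, and 48.8, and its HCD difference was −0.33 with normexp background correction. The only probe of *cdkn1ba* was an outlier in control and differed by 0.55 between BBR and HCD.

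Including these relatives, 95 genes of the p53 pathway were listed in 5 groups, of which 73 had a probe and 69 could be compared. The shares of all genes set beside them include accessions without a symbol, while every listed gene has a symbol. In HCD against control, 6 of the 69 were at least 2-fold higher and 4 at least 2-fold lower. Of all genes, 3.69% were at least 2-fold higher and 4.08% lower. In BBR against control, 4 were higher and 1 lower, where all genes gave 3.81% and 1.28%. In BBR against HCD, 1 was higher and 0 lower, where all genes gave 4.53% and 1.32%. The median log2 difference of the 69 genes was 0.05 in HCD against control, −0.07 in BBR against HCD, and 0.00 in BBR against control. The comparisons with control share the control array, and the genes were listed with earlier results of these arrays known.

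Among p53 family members and regulators, 0 of 12 genes reached 2-fold in any comparison. Of all genes, 3.69% were at least 2-fold higher and 4.08% lower in HCD against control. These shares were 4.53% and 1.32% in BBR against HCD, and 3.81% and 1.28% in BBR against control. A count of 0 in 12 genes is near such shares. The gene nearest to 2-fold was *chek2*, a kinase that activates p53 after DNA breaks, named here because of its value. It read 1049 in control, 2112 in HCD, and 1278 in BBR. Its log2 difference was 1.00 in HCD against control, just under 2-fold before rounding, and −0.81 in BBR against HCD. The 3 probes of *tp73* were not well above background on any array.

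Among 13 genes of cell cycle arrest and growth, only *sesn2* reached 2-fold, higher in HCD and in BBR than in control. Of all genes, 3.69% and 3.81% were at least 2-fold higher in these comparisons. In the list of 26 apoptosis targets and BCL2 family genes, *casp8* and *baxb* were at least 2-fold higher in HCD than in control. *tp53inp1* and *tp53i11b* were at least 2-fold lower in HCD, where all genes gave 3.69% higher and 4.08% lower. *casp8*, an initiator caspase of death receptors, read 1946 in control, 4318 in HCD, and 4279 in BBR, and its second probe was also more than 2-fold higher on both, with log2 differences from control of 1.28 and 1.34. *baxb*, a relative of *baxa*, read 869, 1807, and 1255. Like *baxa*, it was highest in HCD on both probes, with log2 differences from control of 1.05 and 1.16, and lower in BBR than in HCD by log2 differences of −0.61 and −0.53.

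*tp53inp1*, a p53-induced nuclear protein, read 2159 in control, 1002 in HCD, and 1344 in BBR. Genes were compared with *sesn1* by the root mean square distance of their log2 differences from control in HCD and BBR. Each gene was taken by its brightest probe with a value on all 3 arrays. Among 12313 genes with a symbol that were well above background on all arrays, *tp53inp1* was the nearest. The distance was 0.03 log2 units, and the next genes were *si:ch211-147k10.6* (0.03) and *dusp13a* (0.04). Likeness over 3 arrays rests on 2 differences only. The 3 distances differ by far less than the SD of 0.24 to 0.30 between copies of a probe, so their order is not resolved. The search also used 1 probe of *sesn1*, and A_15_P130311 gave −0.97 in HCD and −0.82 in BBR. *tp53i11b* had a log2 difference from control of −1.28 in HCD and −1.23 in BBR on its brightest probe. That probe read only 203 in control, 84.5 in HCD, and 92.3 in BBR. On the 3 dimmer probes, which read from 53.3 to 118, the range was −1.07 to −0.77 for HCD and −0.65 to −0.23 for BBR.

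In the list headed DNA repair, nucleotide, and metabolic targets, 13 genes were compared. *atf3*, *dram1*, and *tnfrsf1a* were at least 2-fold higher in HCD than in control and *pltp* at least 2-fold lower. Of all genes, 3.69% were higher and 4.08% lower by this threshold, and the counts per list were not tested against these shares. Membership rests on the list, and regulation of these genes by p53 was not tested. *atf3*, a stress-induced transcription factor, read 698 in control, 3152 in HCD, and 3006 in BBR, with log2 differences from control of 2.16 and 2.01. *dram1*, a regulator of autophagy, read 1397, 3149, and 3066, with log2 differences from control of 1.16 and 1.04. Its second probe was an outlier in control and HCD, and with those spots kept its differences from control were 0.68 and 0.89. *tnfrsf1a*, a receptor of tumour necrosis factor, read 2299, 4884, and 4867, with log2 differences from control of 1.08 and 0.99. For *atf3*, *dram1*, *tnfrsf1a*, *casp8*, and *sesn2*, BBR was within 0.18 log2 units of HCD on the brightest probe. With array medians, BBR was lower than HCD on these probes, by −0.23 to −0.32. The leukocyte markers and the summed erythrocyte level were higher on the same arrays, and their part was not tested. The median log2 difference of the erythrocyte markers from control was 0.22 in HCD and −0.01 in BBR. *pltp*, a phospholipid transfer protein, was the only listed gene whose brightest probe differed at least 2-fold between BBR and HCD, higher in BBR by 1.07 log2 units on its brightest probe and by 1.24 on the other. Against control, these probes of *pltp* had log2 differences of −1.94 and −2.23 in HCD.

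**Figure D3:**
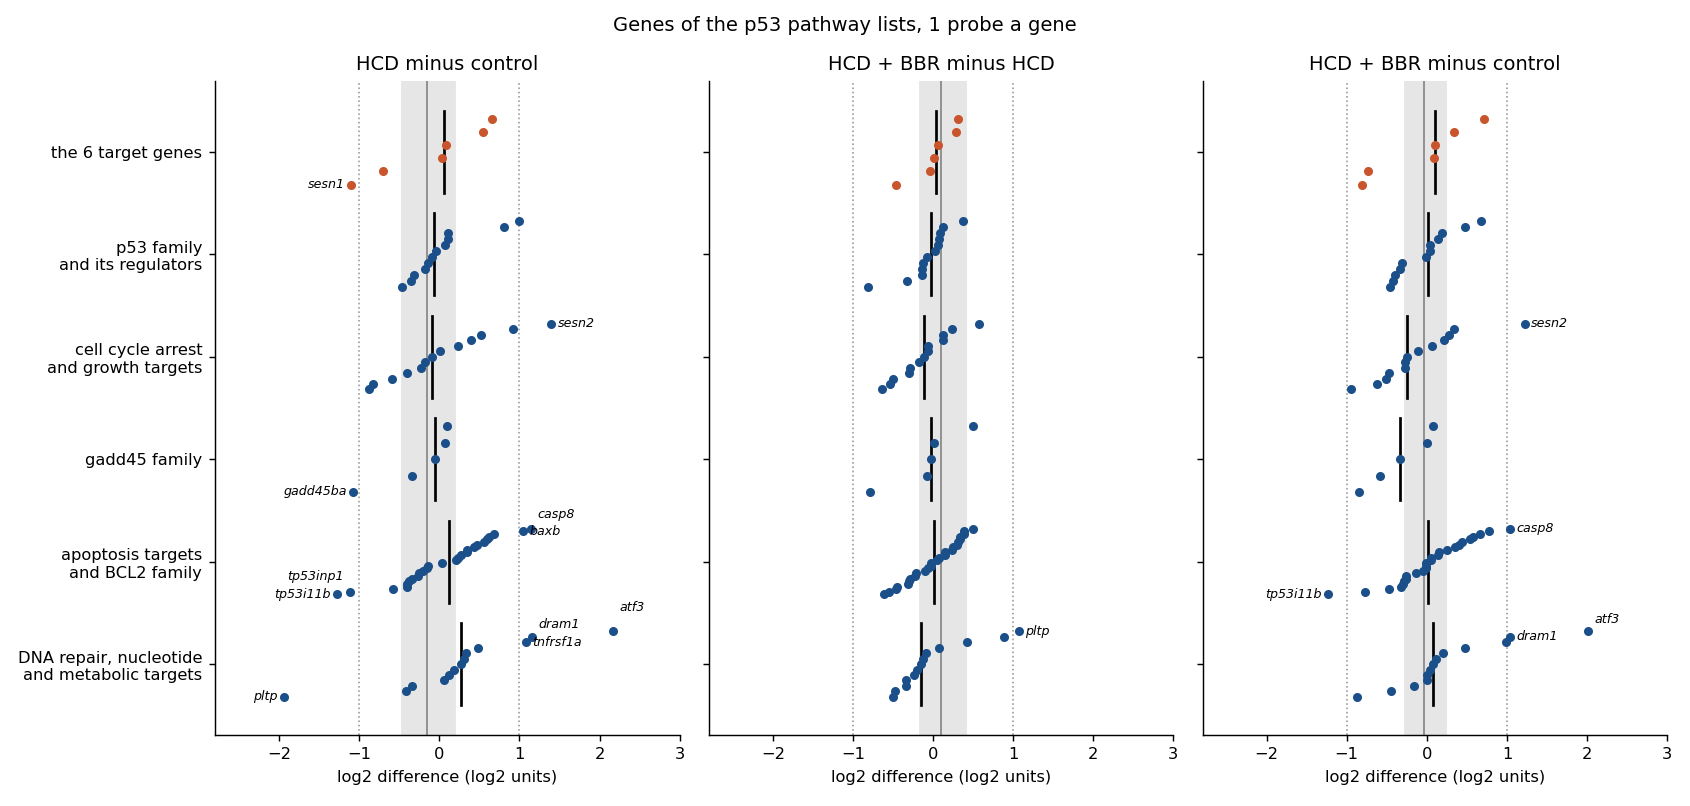
Log2 difference (horizontal axis, log2 units) of each gene, by its brightest probe, for the 6 target genes with a probe and the 5 lists of other p53 pathway genes in the 3 comparisons. Each point is 1 gene, black bars are list medians, the grey band spans the middle 50% of all genes, and genes beyond 2-fold (dotted lines) are named. In HCD against control, 10 of 69 listed genes and *sesn1* lay beyond 2-fold, where 3.69% of all genes were higher and 4.08% lower. In BBR against HCD only *pltp* did, where all genes gave 4.53% and 1.32%.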

How the data were processed

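Liver RNA was measured on 1 array per group. Feature Extraction 11.5.1.1 (10.7 in the submitters' processing notes) wrote the files that the authors deposited, with the processed intensity of each spot, its median and background intensity, and marks for detection and outliers. A table of log2 values, which the authors made with GeneSpring and deposited, differed by at most 0.0019 from log2 intensities shifted by the 75th percentile of their array.

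The same scaling was used here, without a pseudocount. Outlier spots were left out. Probes entered a comparison when either array had them well above background, and a dim array was raised to the lowest signal well above background, which touched no probe of the target genes. Lists used the brightest probe of a gene with a value on all 3 arrays. In shares and medians over all genes, an accession without a symbol counted as a gene of its own. This gave 27295 genes, where the array held 13443 gene symbols. Of 28397 accessions, 13553 matched a symbol in the RefSeq table of GRCz12tu, used for names only, and sequences were not used. The threshold was 2-fold, as in the methods, and no test across samples exists for 1 array per group. The genes, lists, and alternatives were chosen with earlier results of these arrays known. By the rule, the named genes were all target genes, their relatives, list genes beyond 2-fold, and the 3 genes most like a target gene beyond 2-fold. *chek2*, *tp73*, and the genes under other observations fall outside it and were chosen after their values were seen. Steps were tested on simulated data. Tools were Python 3.11.15, pandas 2.3.3, R 4.3.3, and limma 3.58.1. Alternatives were 4 scalings, normexp with offset 50, other filters, thresholds, and probes, and the authors' log2 values. A gene that the lists count is not reported here.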

Additional observations from a re-analysis of the deposited data

How the results depend on the processing

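For 192 pairs of a named gene's probe and a comparison, the difference was recomputed under 9 alternatives. Only some of these pairs differed beyond 2-fold, and none of those changed direction. The pairs had no outlier spot on the compared arrays and were well above background. The authors' values, the percentile scaling over detected probes, and the outlier and filter settings therefore returned nearly the main value by construction. Array medians shifted all probes alike, by 0.09 in HCD against control, −0.14 in BBR against HCD, and −0.05 in BBR against control. Such a shift cannot reverse a difference beyond 2-fold. Quantile normalization, cyclic loess, and normexp moved probes by differing amounts. That no pair beyond 2-fold changed direction is therefore a weak check. *sesn1* stayed the only target gene beyond 2-fold under all alternatives that kept this threshold. It did so on 1 of its 3 probes, A_15_P726426, which was at −1.005 with array medians. A_15_P130311 stayed short of 2-fold, from −0.97 to −0.865. At 1.5-fold, 6 target probes differed in HCD against control (27.3% of all probes), 1 in BBR against HCD (21%), and 5 in BBR against control (17.1%). At 3-fold, 0 differed in HCD against control (1.5% of all probes). Cyclic loess moved the median of all probes by 0.15 in HCD against control and −0.13 in BBR against HCD, quantile normalization by 0.12 and −0.14, and scaling by array medians by −0.14 in BBR against HCD. The share of 2-fold probes that were higher, 46.9% in HCD and 77.2% in BBR against HCD, became 75.7% and 49.6% under cyclic loess, 70.2% and 48.2% under quantile normalization, 59.9% and 58.3% with array medians, and 64.5% and 64.8% with normexp. Among listed genes, normexp took HCD against control below 2-fold for *tnfrsf1a* (0.69), *baxb* (0.93), *tp53i11b* (−0.80), and *tp53inp1* (−0.90), and BBR against control for *tp53i11b* (−0.93) and *dram1* (0.98). Array medians did so for *gadd45ba* in HCD against control (−0.98), *pltp* in BBR against HCD (0.93), and *casp8* (0.996) and *dram1* (0.99) in BBR against control, and cyclic loess for *tp53i11b* in HCD against control (−0.98). *chek2* in HCD against control passed 2-fold with array medians (1.09), cyclic loess (1.05), and quantile normalization (1.0003), *cdkn1d* in BBR against control with quantile normalization (−1.01), and *tnfrsf1a* in BBR against control with cyclic loess (1.01). The median of the target genes changed sign in HCD against control with normexp (−0.13) and with probes averaged (−0.10), and in BBR against HCD with array medians (−0.11), quantile normalization (−0.01), normexp (−0.02), and outlier spots kept (−0.04). The causes were not tested. No paired analysis was possible because each group has 1 array, and for the same reason no replicate could be left out.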

Other observations

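The genes named here were chosen after their values were seen, some for dimmer probes beyond 2-fold. For *xpc*, a sensor of DNA damage in nucleotide excision repair, the dimmer probe was higher in BBR than in HCD by 1.22 log2 units and the brightest probe by 0.89. *ddb2*, which acts in the same repair pathway, was higher in BBR than in HCD by 0.42 on each of its 2 probes. In HCD against control, *xpc* had log2 differences of −0.41 and −0.64, and *ddb2* of −0.34 and −0.55. *casp3b*, an executioner caspase, differed from control by 0.62 in HCD and 0.77 in BBR on its brightest probe and by 1.62 and 1.38 on the other. Both probes were dim, at 79.3 in control, 123 in HCD, and 145 in BBR on the first and 46.3, 143, and 129 on the other. *bcl2l1*, which opposes Bax, had log2 differences of −0.20 and −1.29 on its probes in HCD against control, and BBR was higher than HCD by 0.15 and 0.82 on them. With normexp, the dimmer probes fell short of 2-fold in HCD against control, at 0.92 for *casp3b* and −0.92 for *bcl2l1*, and *casp3b* was at 0.75 in BBR against control. The antiproliferative gene *btg2* was lower in BBR than in control on all 3 probes, with log2 differences of −0.62, −0.62, and −0.80. For *perp*, from the apoptosis list, A_15_P513317 read 3135 in control and 7758 in BBR, a log2 difference of 1.21. Its HCD spot was an outlier. The other *perp* probes differed between BBR and control by only 0.15, 0.02, and 0.00.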
